A study of Mus musculus with 6 samples.

Results

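The 8 genes described here, Myc, Met, Yap1, Birc2, Birc3, Mcl1, Rb1 and Nf1, are cancer genes that gain or lose copies in some tumors. They were taken as the genes that a probe set of the array names alone: 11 probe sets name 1 of the 8 genes, out of 23521 probe sets that name 1 gene, and the 8 genes are 8 of 22180 genes tested. Expression was compared in 3 samples of sorted wild-type luminal mammary cells (K8wt, replicates 1, 2 and 4) and 3 mammary tumors (tumors 23, 24 and 25). The K8wt cells came from Rosa26-Stop-YFP females given the adenovirus Ad-K8-Cre, in which a keratin 8 promoter drives Cre recombinase, by injection into the ducts, and were sorted for YFP 10 to 14 days later. The K8wt labels number 3 separate mice. The tumors formed in females of genotype Trp53L/L;Brca1L/L given the same virus; the labels call them null for both genes, give no age of the animals, and do not say whether each tumor had a mouse of its own. Were 2 tumors from 1 mouse, the spread behind the p-values would be partly technical. The labels describe sorting for the normal cells and not for the tumors. DNA was not measured, so no copy number is known for any gene or tumor, and each tumor is shown against the range of the K8wt arrays because copies may differ between tumors.

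Of the targeted genes, Brca1, a factor of homologous recombination, measured 2.93 ± 0.11 on K8wt arrays and 3.88 ± 0.19 on tumor arrays (SD, n = 3); limma gave an adjusted p of 0.044 and no call in any of the 6 fits that leave out 1 array. All 3 K8wt values were under the background mark described below. With the mark of each K8wt array in place of its value, the tumor mean was at least 1.07-fold higher than that of K8wt. The labels give no deleted exons, so the Brca1 level checks no label, and Trp53 had no probe set naming it alone. Values are log2 expression values (RMA), so a difference of 1 is a doubling. Tests are limma's, two-sided, with Benjamini-Hochberg adjustment over 22180 genes and a threshold of 0.05. Markers of other cells differed between the groups. In tumors 23, 24 and 25 the mean of 12 skeletal muscle genes was 8.52, 3.67 and 5.73, where the K8wt arrays gave 3.38 to 3.58. The mean of 13 macrophage genes was 6.22 to 6.98 in tumors and 4.19 to 4.91 on the K8wt arrays, that of 12 fibroblast and matrix genes 6.18 to 7.35 against 5.55 to 6.06, and that of 11 proliferation genes 5.58 to 7.32 against 3.96 to 4.85. The mean of 11 luminal epithelial genes, which check the sort, was 8.63 to 9.29 on the K8wt arrays and 6.85 to 8.09 in the tumors. The part of these cells in the results below was not tested, and in bulk tissue fewer cells of a type and less RNA per cell cannot be told apart.

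Myc encodes a transcription factor that drives growth and ribosome synthesis. Met is the receptor tyrosine kinase for hepatocyte growth factor. Yap1 is the coactivator held out of the nucleus by the Hippo kinases, and Birc2 and Birc3 encode the ubiquitin ligases cIAP1 and cIAP2, which act in tumor necrosis factor signalling and restrain cell death. Mcl1 is a short-lived member of the BCL2 family that protects mitochondria. Rb1 restrains E2F factors at the entry to S phase, and Nf1 switches off RAS. Extra copies of the first 6 and loss of Rb1 and Nf1 are known from human and mouse carcinomas, and Yap1, Birc2 and Birc3 lie side by side, so that 1 gained segment can hold all 3.

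None of the 8 genes passed the test, where 3.91% of all genes (867 of 22180) and 7.14% of genes with a mean of at least 5 did, and 2 of the 8, Birc2 and Mcl1, had an unadjusted p under 0.05, as had 26.4% of all genes. Differences between tumor and K8wt means ran from -0.69 for Mcl1 to 0.44 for Birc2, with 5 genes lower and 3 higher in tumors. On simulated data, with 125 calls where the real data gave 867, the test recovered 10% of genes changed by 1 log2 unit. Fewer calls make the adjusted threshold stricter, so the share recovered in the real data may differ. Not passing does not show an unchanged level. The median of the 8 differences was -0.25, beside -0.12 over all genes and 0.32 over the 7726 genes with a mean of at least 5, the range in which all 8 lie. Their values ran from 6.31 to 8.80 over the 6 arrays, above the 95th percentile of 1105 olfactory receptor genes on every array, a mark of background (3.70 to 3.86 on K8wt arrays and 3.24 to 3.45 on tumor arrays). No tumor lay more than 1 log2 unit outside the K8wt range for any of the 8 genes, a distance that 9.36% of all genes passed in tumor 23, 8.33% in tumor 24 and 11.5% in tumor 25.

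**Figure D1:**
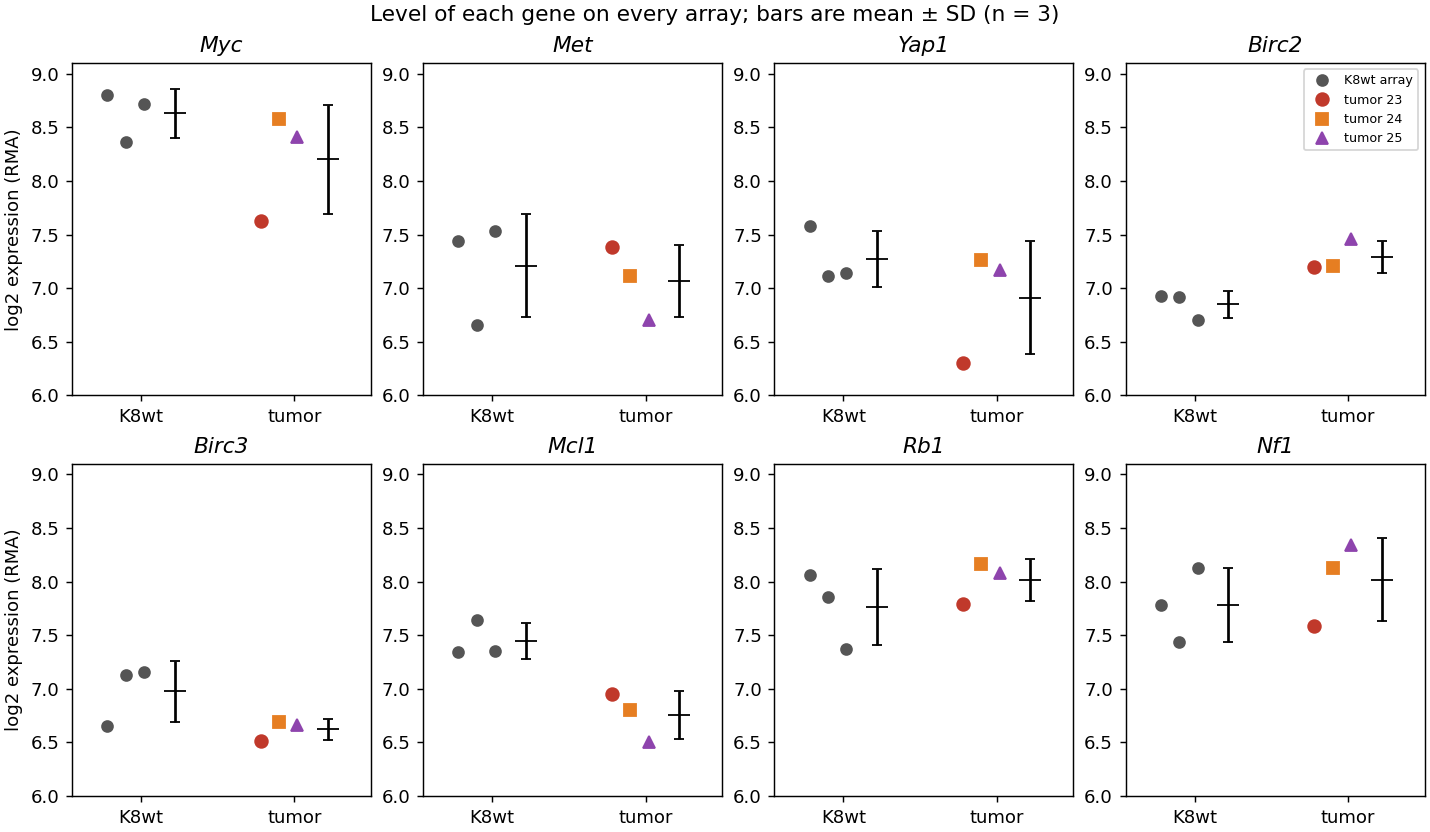
Log2 expression (RMA) of each of the 8 genes on every array; grey circles are K8wt arrays, coloured marks the 3 tumors, and bars the mean ± SD of each group (n = 3). The groups are apart for Birc2 (tumors above) and Mcl1 (tumors below), and tumor 23 lies below all other arrays for Myc and Yap1.

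Myc was not higher in any tumor than on the highest K8wt array. It measured 8.80, 8.37 and 8.72 in K8wt replicates 1, 2 and 4, and 7.63, 8.57 and 8.41 in tumors 23, 24 and 25. Tumors 24 and 25 lay inside the K8wt range and tumor 23 lay 0.74 below it. The difference between the means was -0.43 ± 0.29 (SE; limma's adjusted p 0.37), with a 95% interval of -1.12 to 0.27. Without tumor 23 it was -0.14. In tumor 23 alone Myc was 1.00 ± 0.30 (SE) lower than the K8wt mean and did not pass. Fits of 1 tumor, here and below, take their spread from the K8wt arrays alone. They were chosen after seeing the data and assume that the lone tumor varies like those K8wt arrays.

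Met showed wide spread among the K8wt cells themselves. Its values were 7.44, 6.66 and 7.54 in K8wt replicates 1, 2 and 4, and 7.38, 7.12 and 6.71 in tumors 23, 24 and 25. All 3 tumors lay inside the K8wt range. The difference of -0.14 ± 0.30 (SE) had an adjusted p of 0.76 in limma and a 95% interval of -0.87 to 0.58, and its sign turned without K8wt replicate 4 (0.02) and without tumor 25 (0.04).

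Yap1 resembled Myc in that tumor 23 was the low array. Values of 7.58, 7.11 and 7.14 on the K8wt arrays compared with 6.31, 7.26 and 7.17 in tumors 23, 24 and 25. Tumor 23 lay 0.81 below the K8wt range and the other tumors inside it. A dimmer probe set of Yap1, below the background mark, measured 2.72, 2.75 and 2.49 on the K8wt arrays and 2.18, 2.55 and 2.38 in the tumors. For the brighter one the difference was -0.36 ± 0.30 (SE; limma's adjusted p 0.45), with a 95% interval of -1.09 to 0.36. Without tumor 23 it was -0.06, and tumor 23 alone differed by -0.97 ± 0.31 (SE; limma's adjusted p 0.22).

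Birc2 and Birc3, the neighbours of Yap1, had mean differences of opposite sign, and neither passed. Birc2 measured 6.93, 6.92 and 6.71 on the K8wt arrays and 7.20, 7.21 and 7.46 in tumors 23, 24 and 25, so that every tumor lay above every K8wt array, as for 14.0% of all genes. Its difference was 0.44 ± 0.17 (SE), a 1.36-fold higher mean (limma's adjusted p 0.17); the same difference was -0.18 after centring on housekeeping genes, a scaling that moves the median of all genes from -0.12 to -0.74. Birc3 measured 6.65, 7.12 and 7.16 on the K8wt arrays and 6.51, 6.69 and 6.66 in the tumors. Tumor 23 alone lay below the K8wt range, by 0.14. The difference of -0.36 ± 0.20 (SE) had an adjusted p of 0.29 in limma and passed downward after housekeeping centring (-0.98, adjusted p of 0.040). The log2 ratio of the Birc2 probe set to the Birc3 probe set, which no shift of a whole array changes, was 0.28, -0.21 and -0.45 on the K8wt arrays and 0.69, 0.52 and 0.80 in the tumors. The groups of this ratio did not overlap (difference of 0.80), as for 36.4% of single genes, and other gene pairs were not counted. The two-sided exact permutation p was 0.10, the smallest that 3 arrays against 3 can give. The ratio was formed after these values were seen, from a gene seen higher and a gene seen lower. This p therefore gives no support for opposite directions.

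The starts of the paired genes Birc2 and Birc3 are shown because the neighbours differ in sequence there. Each stretch runs from 250 bases before to 50 bases after a start site, 5′ to 3′ on the minus strand of the RefSeq build GRCm38.p6, with CG pairs in capitals. RefSeq promoter sequences were at hand for 6 of the 8 genes, with 2 starts for Birc2, of which the outer is printed.
Birc2, chr9:7837008-7837307: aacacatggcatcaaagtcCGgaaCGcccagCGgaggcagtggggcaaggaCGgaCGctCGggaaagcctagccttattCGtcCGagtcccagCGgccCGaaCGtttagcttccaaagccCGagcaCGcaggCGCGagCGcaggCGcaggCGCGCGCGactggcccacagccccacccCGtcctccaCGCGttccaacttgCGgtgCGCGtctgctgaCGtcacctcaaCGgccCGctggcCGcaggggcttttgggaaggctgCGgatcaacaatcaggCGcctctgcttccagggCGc
Birc3, chr9:7873121-7873420: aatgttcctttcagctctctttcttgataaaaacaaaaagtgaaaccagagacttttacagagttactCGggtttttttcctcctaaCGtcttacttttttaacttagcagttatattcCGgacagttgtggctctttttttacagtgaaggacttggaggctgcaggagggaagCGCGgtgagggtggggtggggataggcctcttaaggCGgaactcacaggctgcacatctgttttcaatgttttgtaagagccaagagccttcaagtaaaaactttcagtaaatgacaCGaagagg
The printed Birc2 stretch held 34 CG pairs, the stretch at the other Birc2 start 21 and the Birc3 stretch 7, against a median of 7 over 32851 promoter stretches of the table. Of these stretches, 92.3% held fewer CG pairs than the printed stretch of Birc2, 75.2% fewer than its other start and 47.9% fewer than that of Birc3. The Yap1 stretch held 49, more than 99.0% of stretches, and those of Mcl1, Met and Nf1 held 33, 34 and 30. This describes the letters of the reference and measures no methylation.

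Mcl1 had the largest difference of the 8. Values were 7.34, 7.64 and 7.36 on the K8wt arrays and 6.95, 6.80 and 6.51 in tumors 23, 24 and 25. Every tumor lay below every K8wt array, as for 22.4% of all genes; Birc2 and Mcl1 were the 2 of 8 whose groups did not overlap, beside 36.4% of all genes. The difference of -0.69 ± 0.20 (SE), a 1.62-fold lower mean, had an unadjusted p of 0.010 and an adjusted p of 0.099 in limma, with a 95% interval of -1.16 to -0.23. Among the settings tried it passed in limma only after housekeeping centring (-1.31, adjusted p of 0.026). A dimmer probe set of Mcl1 measured 2.90, 3.68 and 3.11 on the K8wt arrays, under the background mark, and 3.08, 3.54 and 4.40 in the tumors, and the mean of both probe sets differed by -0.12.

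On the deposited scale, the tumor suppressors Rb1 and Nf1 were not lower than the K8wt range in any tumor. Rb1 measured 8.07, 7.86 and 7.37 on the K8wt arrays and 7.79, 8.17 and 8.08 in tumors 23, 24 and 25; tumor 24 lay 0.10 and tumor 25 0.01 above the range. The difference was 0.25 ± 0.24 (SE; limma's adjusted p 0.50), with a 95% interval of -0.32 to 0.81. Another 2 probe sets name Rb1 together with Lpar6, a receptor gene that lies within Rb1, and were left out by the rule. Nf1 measured 7.78, 7.44 and 8.13 on the K8wt arrays and 7.59, 8.13 and 8.34 in the tumors. Tumor 25 lay 0.21 above the K8wt range and tumor 23 inside it, while tumor 24 passed its upper end by less than 0.01. The Nf1 difference of 0.24 ± 0.28 (SE) had an adjusted p of 0.58 in limma and a 95% interval of -0.43 to 0.90. After housekeeping centring both differences turned negative (-0.37 for Rb1 and -0.38 for Nf1).

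Counted over 8 genes and 3 tumors on the deposited scale, 7 of 24 values lay above the K8wt range, 6 below it and 11 inside it. Tumor 23 had 1 gene above (Birc2) and 4 below (Myc, Yap1, Birc3 and Mcl1), where 28.8% and 40.6% of all genes lay above and below. Tumors 24 and 25 each had 3 above (Birc2, Rb1 and Nf1) and 1 below (Mcl1), beside 26.1% above and 41.4% below in tumor 24 and 30.8% above and 41.0% below in tumor 25. Outside the range on either side lay 5 of 8 in tumor 23, 4 of 8 in tumor 24 and 4 of 8 in tumor 25, where 69.4%, 67.6% and 71.8% of all genes did; the difference between these shares was not tested. Fitted alone, each tumor gave no call among the 8, the lowest adjusted p in limma being 0.16 for Mcl1 in tumor 25. In these fits 1.97% of all genes passed in tumor 25, 0.712% in tumor 23 and none in tumor 24, where 3588 genes had an unadjusted p under 0.05.

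**Figure D2:**
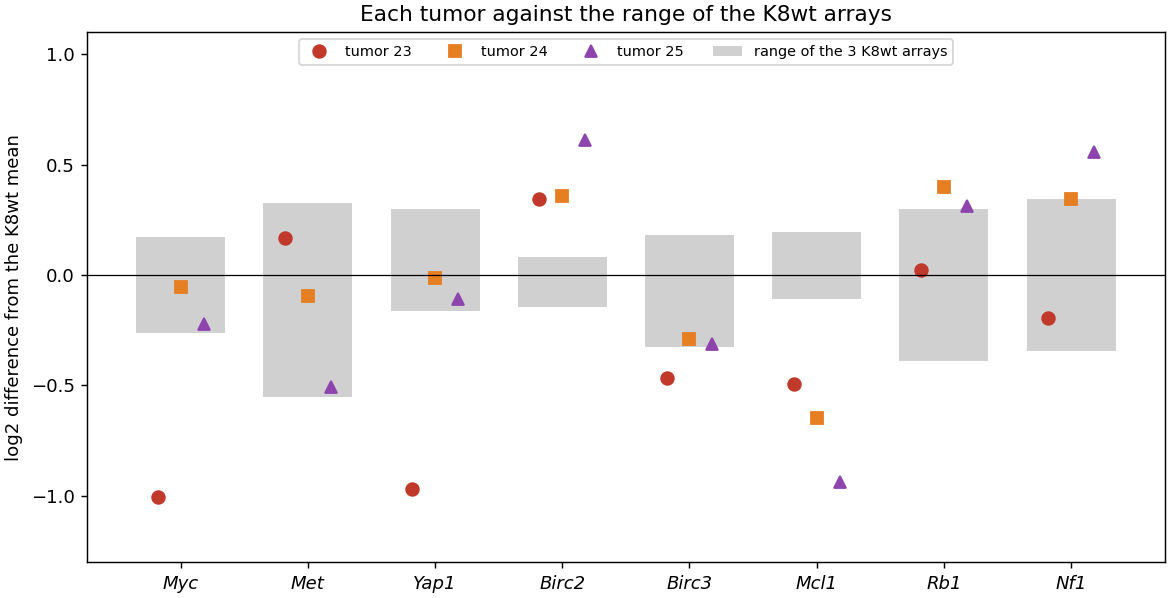
Difference of each tumor (coloured marks) from the K8wt mean of the same gene, in log2 units; grey blocks span the lowest to the highest of the 3 K8wt arrays. Birc2 is above the block and Mcl1 below it in all 3 tumors, and tumor 23 is 0.74 below it for Myc and 0.81 below it for Yap1.

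A gained or lost segment holds neighbours as well, so the 10 measured genes on each side of each of the 8 were read in the same tumors, in the gene order of the RefSeq table. Of 123 distinct flanking genes, 3 rose and 2 fell, against 2.52% rising and 1.39% falling over all genes. Leaving out tumor 23 or K8wt replicate 2 took the call from all 5. Without each of the other arrays, at least 1 of them lost it too, except that all 5 held without tumor 24. Their directions held under every scaling and every fit without 1 array.

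Around Myc, Washc5, which encodes a subunit of the WASH complex on endosomes, rose by 1.92 ± 0.28 (SE, adjusted p of 0.025 in limma), from 6.38, 6.32 and 6.52 on the K8wt arrays to 8.22, 7.88 and 8.90 in tumors 23, 24 and 25. Beside it, the sterol enzyme gene Sqle (1.56 ± 0.76, adjusted p of 0.24) and Nsmce2, of the SMC5-SMC6 complex (1.53 ± 0.34, adjusted p of 0.061), had higher means without passing. Sqle values in tumors 23 and 24 were 7.94 and 7.16 where K8wt replicate 4 reached 7.84, and tumor 25 was at 9.80. Pvt1, the noncoding neighbour on the other side of Myc, measured 5.06, 5.14 and 4.94 on the K8wt arrays, and 4.26, 6.99 and 4.08 in tumors 23, 24 and 25. It was 1.85 above the K8wt range in tumor 24 and below the range in the other tumors, while Myc in tumor 24 was inside its own range. Of the 20 flanking genes of Myc, 10 lay under the background mark on all 6 arrays. The median difference of the 20 was -0.38, -0.24 and -0.29 in tumors 23, 24 and 25. Over the 6 with a mean of at least 5 it was 0.88, 1.03 and 1.51, beside 0.32, 0.15 and 0.43 over all genes of that level.

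The segment of Yap1, Birc2 and Birc3 held the most distant values. Measured genes 28, 29 and 30 of chromosome 9 in this order are Birc2, Birc3 and Yap1. Trpc6, a calcium channel gene, fell by 3.35 ± 0.49 (SE, adjusted p of 0.026 in limma), from 6.25, 6.50 and 8.13 to 3.43, 3.57 and 3.84. The progesterone receptor gene Pgr measured 4.67, 5.16 and 5.66 on the K8wt arrays and 2.29, 2.75 and 2.63 in the tumors, all under the background mark. It fell (adjusted p of 0.015) and was at least 3.47-fold lower, with the mark of each tumor array in place of its value. On the other side Mmp12, the macrophage elastase, measured 4.26, 2.88 and 2.71 on the K8wt arrays, the last 2 under the background mark, and 6.57, 8.90 and 6.998 in tumors 23, 24 and 25. Its rise of 4.21 ± 0.69 (adjusted p of 0.033) is therefore measured in part against background, with the macrophage markers higher in the same tumors. Genes of this segment therefore rose and fell around members that did not pass. Values high in 1 tumor were found here too: the matrix metalloprotease gene Mmp7 measured 7.19 in tumor 23, against 3.96 and 4.09 in tumors 24 and 25 and 3.77 to 4.28 on the K8wt arrays. Cfap300, a cilium gene next to Yap1, was at 5.68 in tumor 25, against 3.61 and 3.08 in tumors 23 and 24 and 2.40 to 2.90 on the K8wt arrays, which lie under the background mark. Yap1 was at its lowest in tumor 23 and inside the K8wt range in tumor 25. Less the median of all genes, the median of the 20 flanking genes of Yap1 was -0.27, -0.11 and -0.24 in tumors 23, 24 and 25; with 20 measured genes on each side the mean over the tumors was 0.16 and with genes of a mean of at least 5 it was 0.39, so no direction is given for the segment.

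Around Mcl1, 1 of the 20 flanking genes (Ctss) passed, and 10, 11 and 10 of the 20 lay above the K8wt range and 3 below it in tumors 23, 24 and 25. Their median difference was 0.61, 0.46 and 0.56 in tumors 23, 24 and 25, where the median of all genes was -0.12, -0.14 and -0.11. Over the 12 flanking genes with a mean of at least 5 it was 0.70, 0.84 and 0.76, beside 0.32, 0.15 and 0.43 over all genes of that level. Mcl1 itself was 0.49, 0.65 and 0.94 below its K8wt mean in these tumors. The lysosomal protease gene Ctss, which macrophages express, rose by 3.09 ± 0.45 (SE, adjusted p of 0.024 in limma), with the macrophage markers higher in the same tumors. The histone methyltransferase gene Setdb1 (2.79 ± 0.70, adjusted p of 0.079) and Tars2, a mitochondrial threonyl-tRNA synthetase gene (1.21 ± 0.28, adjusted p of 0.067), had higher means without passing. Anp32e, a histone chaperone gene, measured 0.92 ± 0.57 higher (adjusted p of 0.33), with 3.91 in tumor 24 below every K8wt array.

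Around Met, the gene next to it, Cav1, of the caveolar coat, measured 5.51, 5.75 and 6.83 on the K8wt arrays and 3.71, 4.70 and 4.87 in tumors 23, 24 and 25. All tumors lay below all K8wt arrays, and the difference of -1.60 ± 0.45 (SE) did not pass (adjusted p of 0.098 in limma). The tetraspanin gene Tspan12 reached 7.18 in tumor 25, with 5.86 and 5.59 in the others and 5.10 to 5.78 on the K8wt arrays. Tfec and Cttnbp2 lay under the background mark on most arrays. None of the 20 flanking genes of Met passed.

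No flanking gene passed around Rb1 or Nf1 either. Near Rb1, Sucla2, of the citric acid cycle, was at 6.96, 5.91 and 6.70 in tumors 23, 24 and 25 and at 5.59 to 5.91 on the K8wt arrays, and Gm9199 was at 3.52 to 4.16 in tumors and 4.56 to 5.11 on the K8wt arrays. Neither passed (adjusted p of 0.17 and 0.084 in limma). The median of the flanking genes of Rb1, less that of all genes, was 0.02, -0.06 and -0.05 in the 3 tumors. Near Nf1, tumor 23 held the highest values of Ift20 (8.23, with 5.59 to 6.75 on the K8wt arrays), of intraflagellar transport, of Ccnq (7.65, with 5.43 to 6.25), a cyclin gene, and of Ksr1 (5.36, with 3.85 to 4.12), a scaffold of MAP kinase signalling. Utp6, of ribosome processing, was at 5.21 or above in every tumor, where the K8wt arrays gave 4.34 to 4.65, with a difference of 1.24 ± 0.26 (SE, adjusted p of 0.054 in limma). The flanking median of Nf1 less that of all genes was 0.45, -0.073 and 0.076 in tumors 23, 24 and 25, and Nf1 itself was lowest in tumor 23.

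**Figure D3:**
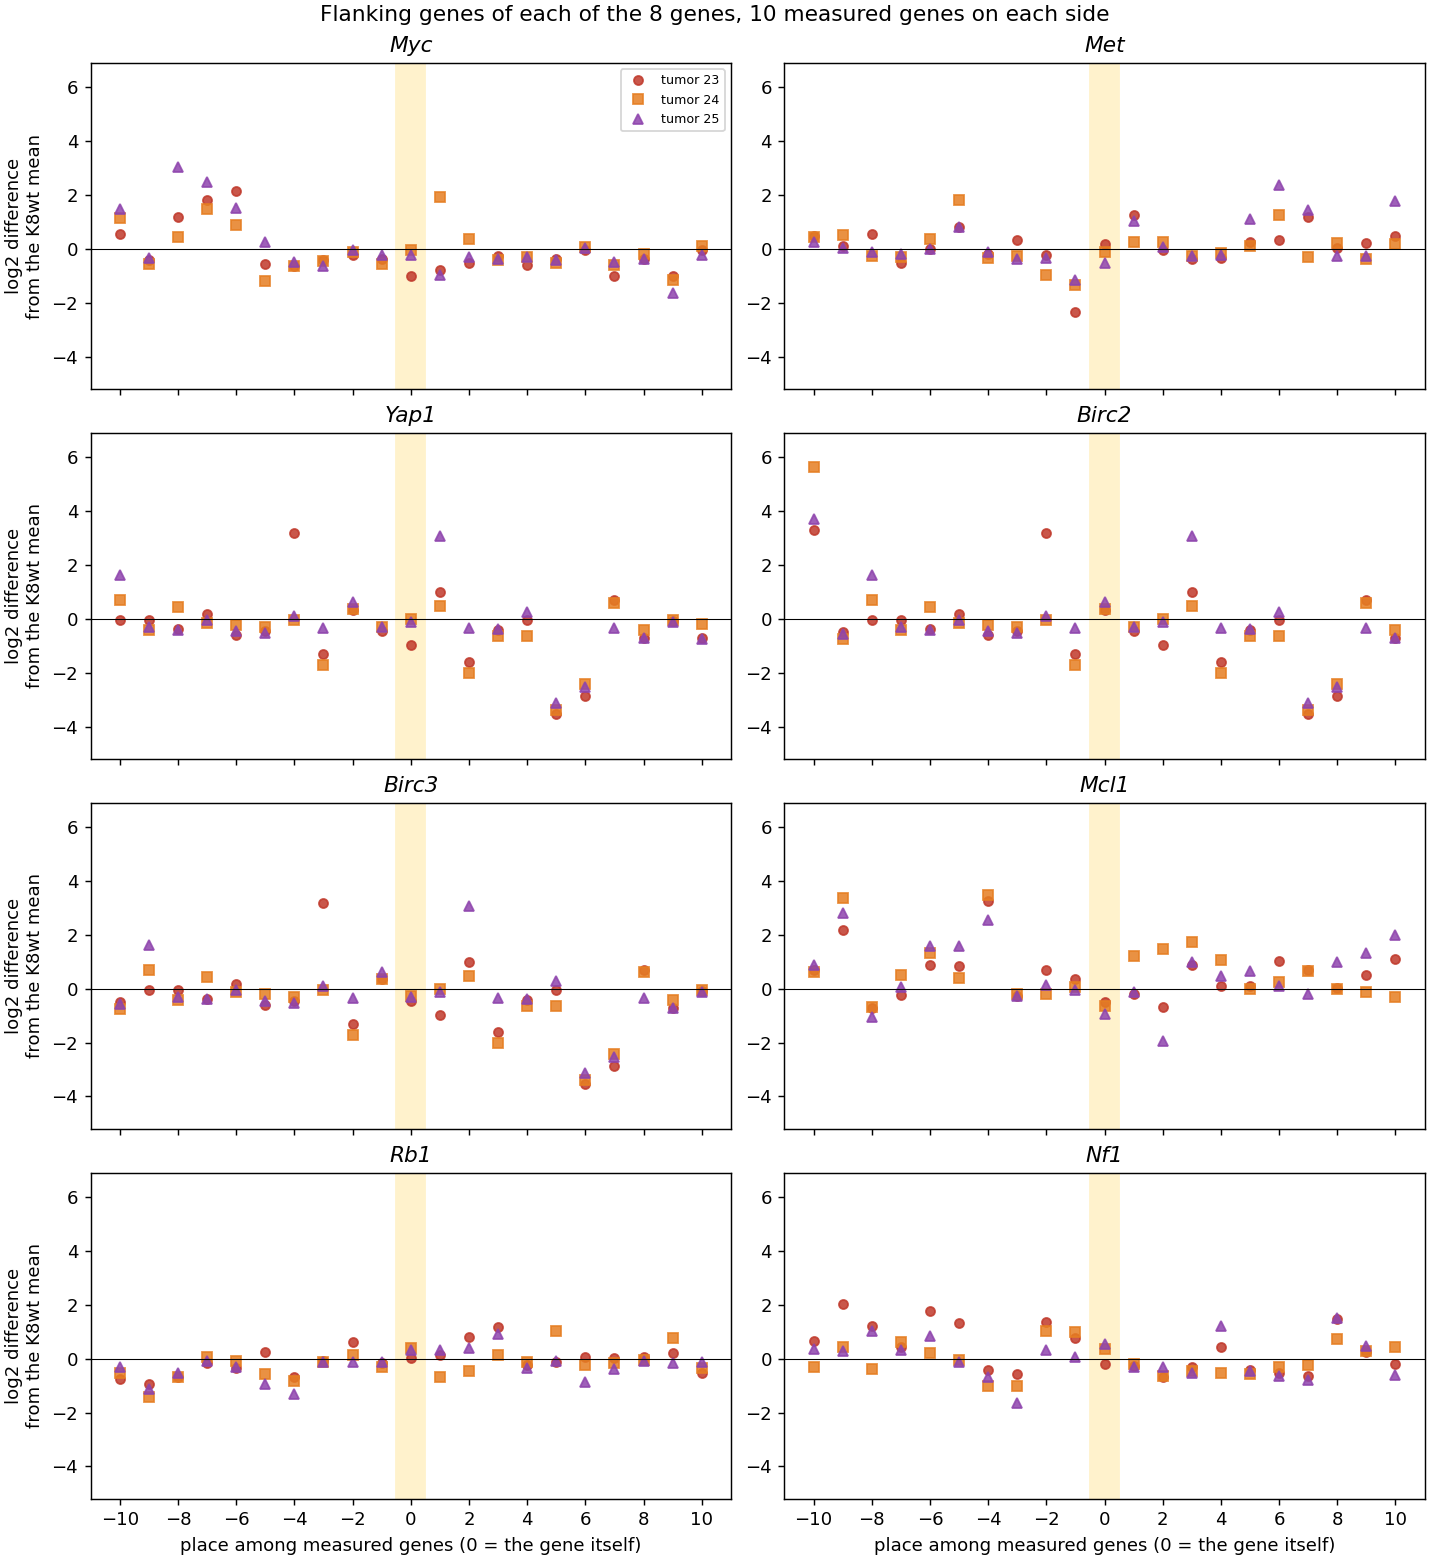
Difference of each tumor from the K8wt mean (log2 units) for each of the 8 genes (place 0, shaded) and the 10 measured genes on each side, in chromosomal order and not to distance. Flanking genes of Mcl1 lie mostly above 0 with Mcl1 below it, Pvt1 (place 1 beside Myc) is high in tumor 24 alone, and Trpc6 and Pgr (places 5 and 6 beside Yap1) are low in all 3 tumors.

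Some genes of the pathways in which the 8 act did pass the test. Over 10 lists, 179 distinct genes were measured, of which 14 rose and 5 fell, where 559 of 22180 rose and 308 fell over all genes. Of genes with a mean of at least 5, 7.14% passed in either direction, and the lists were not matched for level. These lists were drawn up with earlier results of these data known, and some of their genes had been reported as changed, so the counts are a description. After housekeeping centring, which lowers the tumors against the K8wt arrays, the median of 8 of the 10 lists was negative, the MYC targets and the RB family being the others.

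Of the MYC network, 1 of 12 measured genes rose and none fell, with a median difference of 0.04. The gene was Mlx, a dimerization partner in the extended network, at 5.23, 4.86 and 5.38 on the K8wt arrays and 7.69, 6.52 and 7.83 in the tumors (adjusted p of 0.037 in limma). Max, the partner of MYC itself, measured 0.35 ± 0.30 lower (SE, adjusted p of 0.45). Of 20 MYC target genes of ribosome and nucleotide synthesis, 3 rose, none fell and 17 had higher means, with a median of 0.80. Bop1, of ribosome assembly, rose by 2.27 ± 0.43, Polr1b, of RNA polymerase I, by 1.33 ± 0.19 and the nucleolar gene Nop56 by 1.03 ± 0.19 (adjusted p of 0.044, 0.025 and 0.042 in limma). Odc1, the first enzyme of polyamine synthesis, measured 0.85 ± 0.38 lower without passing (adjusted p of 0.21). The median of the 7726 genes with a mean of at least 5 was 0.32. The list median was 0.18 after housekeeping centring. No gene of the list passed after quantile normalization again, nor in 5 of the 6 fits that leave out 1 array, the exception being that without tumor 24. Proliferation markers were higher in the same tumors, and their part was not tested.

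In HGF-MET signalling, 2 of 12 genes fell and none rose, with a median of -0.08. Plaur, the urokinase receptor, fell by 2.70 ± 0.26 (SE, adjusted p of 0.012 in limma), from 8.40, 8.69 and 9.32 to 6.05, 6.18 and 6.10. Spint2, an inhibitor of the proteases that activate hepatocyte growth factor, fell by 1.47 ± 0.19 (adjusted p of 0.018). Its relative Spint1 (-1.18 ± 0.28, adjusted p of 0.072) and the protease gene St14 (-1.27 ± 0.40, adjusted p of 0.12) had lower means without passing. Hgf, the ligand, was under the background mark on all K8wt arrays and in tumor 25 (2.31), at 4.67 in tumor 24, and did not pass (adjusted p of 0.38). Luminal epithelial markers were lower in the same tumors.

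Among Hippo kinases and partners of YAP, 2 of 16 rose and none fell, with a median of -0.14; after housekeeping centring none rose and 5 fell (median -0.76), and none passed under the quantile and loess scalings. They were Ptpn14, a phosphatase that binds YAP (1.68 ± 0.33, SE, adjusted p of 0.048 in limma), and Vgll4, which competes with YAP for TEAD factors (1.46 ± 0.29, adjusted p of 0.048). Of 22 YAP target genes 5 rose and none fell, with a median of 0.28; after housekeeping centring 3 rose and 4 fell (median -0.34). Ankrd1, an ankyrin repeat gene, measured 3.68, 3.82 and 3.49 on the K8wt arrays, all under the background mark, and 7.18, 6.21 and 6.25 in tumors 23, 24 and 25. It rose (adjusted p of 0.014) and was at least 6.84-fold higher in tumors, where the bound sets the tumor mean against the background mark, or the gene's own value if higher, on each array of the dim group. The ectonucleotidase Nt5e (1.98), the binding protein Igfbp3 (1.89), the receptor kinase Axl (1.70) and Ptpn14 rose with it. Fibroblast and matrix markers were higher in the same tumors. So were skeletal muscle markers, with means of 8.52, 3.67 and 5.73 in tumors 23, 24 and 25 against 3.38 to 3.58 on K8wt arrays. The part of these cells was not tested. Ccn1 and Ccn2, the classical YAP targets, failed the test. Ccn1 differed by -1.58 ± 0.43 (adjusted p of 0.094) and Ccn2 by 0.38 ± 0.32 (adjusted p of 0.45).

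Of 16 genes around the cIAP proteins only Htra2, a mitochondrial protease that antagonizes them, rose, by 2.36 ± 0.27 (SE, adjusted p of 0.015 in limma), from 6.74, 6.57 and 5.84 to 8.66, 8.87 and 8.71. The mitotic family member Birc5 measured 2.44 ± 0.54 higher (adjusted p of 0.061) and Xiap 0.28 ± 0.24 lower (adjusted p of 0.46), and the list median was -0.03. Of 17 genes of the BCL2 family only Bcl2 rose and none fell, with a median of -0.26; after housekeeping centring 1 rose and 7 fell (median -0.88), and none passed when the probe sets of a gene were averaged. Bcl2 measured 5.88, 5.12 and 4.46 on the K8wt arrays and 7.005, 7.56 and 7.58 in the tumors, a rise of 2.23 ± 0.38 (adjusted p of 0.037). Mcl1, a protector of the same kind, lay lower in these tumors without passing, and Bcl2l1, which encodes BCL-XL, measured 0.27 ± 0.31 lower (adjusted p of 0.57).

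In the RB family and its partners, 2 of 25 genes rose, none fell and 24 had higher means, with a median of 0.77, beside 0.32 over all genes with a mean of at least 5. After housekeeping centring the list median was 0.15, and no gene of the list passed after quantile normalization again. Rbl1, which encodes the RB relative p107, rose by 2.53 ± 0.48 (SE, adjusted p of 0.044 in limma) and Cdk4, the kinase of D cyclins, by 1.09 ± 0.21 (adjusted p of 0.046). The tumor mean of Cdkn2a lay 1.76 ± 0.52 above its K8wt mean (adjusted p of 0.11), and the cause was not tested. Rb1 itself lay inside the K8wt range in tumor 23 and 0.10 and 0.01 above it in tumors 24 and 25. Of 25 RAS regulators and MAP kinase feedback genes, only the phosphatase gene Dusp5 passed. It fell by 1.80 ± 0.33 (adjusted p of 0.042), and the median was 0.05. Another RAS-switching gene of the kind of Nf1, Rasa1, measured 0.46 ± 0.24 higher (adjusted p of 0.26).

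Among 24 other genes often gained or lost in breast cancer, Cdk4 rose and 2 fell. The receptor gene Fgfr2 measured 9.42, 9.71 and 9.50 on the K8wt arrays and 3.60, 6.42 and 2.87 in tumors 23, 24 and 25, with tumor 25 under the background mark. The tumors were spread widely (SD 1.87) and all lay below the K8wt arrays, with a mean fall of 5.25 ± 0.86 (SE, adjusted p of 0.033 in limma). The kinase gene Map2k4 fell by 2.00 ± 0.35 (adjusted p of 0.038), from 8.42, 7.75 and 9.11 to 6.32, 6.68 and 6.30. The list median was 0.20, and -0.42 after housekeeping centring.

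All 19 genes called in the lists kept their direction in the 6 fits without 1 array and under the 3 other scalings. Fewer kept their call: 12 without tumor 24, 6 without tumor 25, 4 without tumor 23, 3 without K8wt replicate 1, 4 without replicate 2 and 2 without replicate 4. Plaur alone passed in all 6 of these fits. Of the 19, 14 passed after cyclic loess, 13 after housekeeping centring and 11 after quantile normalization again; Cdk4, Axl, Vgll4, Ptpn14 and Nop56 passed under none of these.

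**Figure D4:**
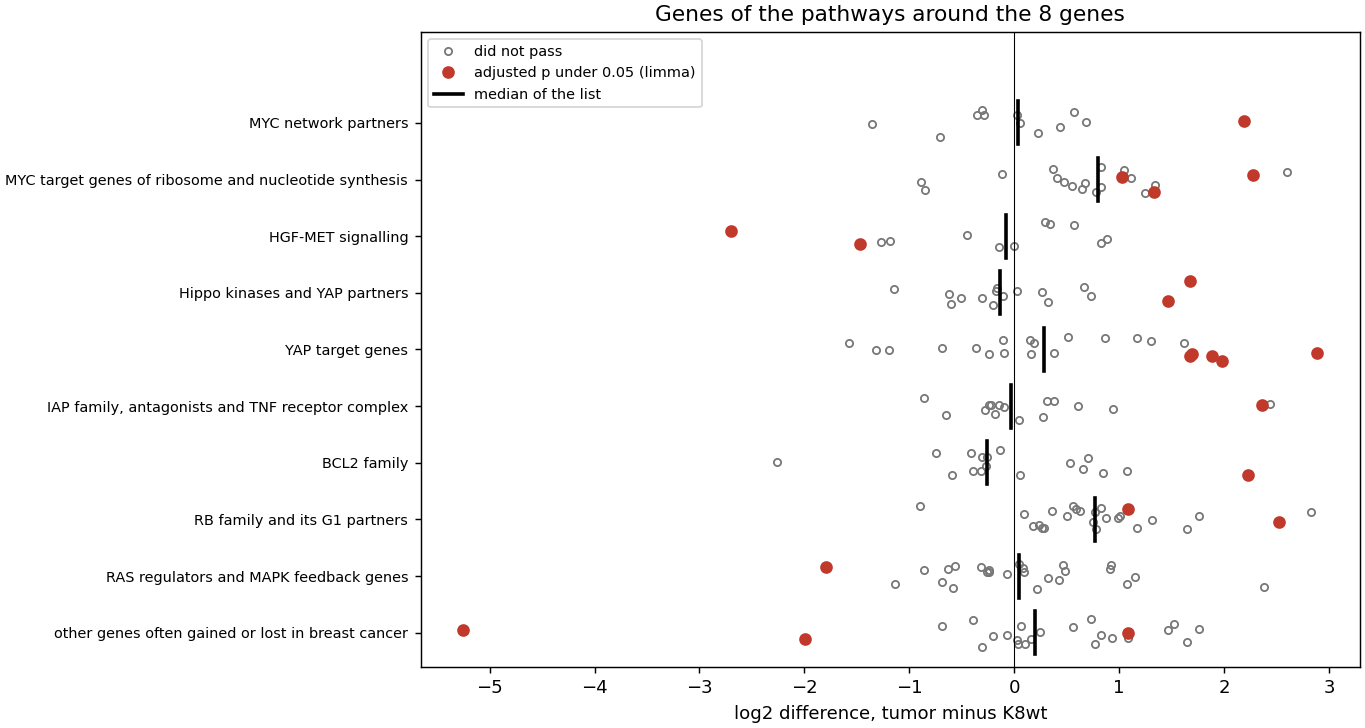
Difference between tumor and K8wt means (log2 units) of each measured gene of the 10 lists; red points passed limma's test, open points did not, and black bars are list medians. Medians are highest for the MYC targets (0.80) and the RB family (0.77).

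The genes most like each of the 8 over the 6 arrays were taken by Pearson's correlation among genes with an SD of at least 0.5, as a description over 6 arrays that share 2 groups. For Myc they were Zbtb39 (0.99), Braf (0.97) and Pcnx (0.96), all lowest in tumor 23. For Yap1 they were the olfactory receptor gene Olfr1337 (0.96), Pcnx (0.94) and Zbtb39 (0.93). Zbtb39 measured 4.48 in tumor 23, against 6.56 and 6.31 in the other tumors and 6.20 to 7.55 on the K8wt arrays. For Mcl1 they were the kinase gene Mapkapk3 (above 0.99), the complement regulator Cd55 (above 0.99) and the Mir9-1 gene (0.99), and for Birc2 the interferon-induced gene Ifit2, Igsf3 and Slc35a4 (all 0.99). Cd55 ran from 6.38 to 7.74 on the K8wt arrays and was at 4.66, 3.60 and 2.18 in tumors 23, 24 and 25, the order of Mcl1 among the tumors. For Met the nearest was the peptide gene Edn1 (0.98), for Birc3 Cfap73 (0.99), for Rb1 Slc9a8 (0.96) and for Nf1, leaving out an olfactory receptor gene under the background mark, Smc6 (0.97).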

How the data were processed

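Expression was measured in 3 K8wt and 3 tumor samples on 1 array each. The deposited values are log2 values per probe set; per the submitters' processing notes the authors used RMA and oligo, versions not given in the sources used here. Per the labels, RNA was amplified with a NuGEN kit. RMA compresses differences near background; array medians were 3.25 to 3.59. Arrays give no read depth, their number limits precision, and no scan date was at hand to test a batch.

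The table held 41345 probe sets; the platform annotation named 1 gene for 23521, several for 1814 and none for 16010. Symbols were updated to RefSeq (GRCm38.p6) by Entrez identifier for 23328, and 193 kept the platform's. The probe set with the highest mean stood for a gene (22180 genes). limma 3.58.1 (lmFit, eBayes; R 4.3.3) compared tumors with K8wt, without covariates or a filter; the step was tested on simulated data. Alternatives were filters on dim genes, other probe set rules, 3 scalings, other priors, array weights and leaving out each array. Named are the 8 genes and up to 4 called genes of each list by size. Also named are up to 4 flanking genes per member more than 1 log2 unit outside the K8wt range in a tumor. For likeness the 3 nearest genes were taken, of which 1 is named for Met, Birc3, Rb1 and Nf1. Other genes named were chosen after their values were seen. The genes and lists were chosen with earlier results of these data known.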

Additional observations from a re-analysis of the deposited data

Results flagged for a closer look

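A dimmer probe set of Rb1, not used for the gene, had a tumor mean of 2.40, above the highest K8wt array (1.91). It was listed for a closer look because it is a signal outside the main measurement that exceeds the control arrays. Its values were 1.83, 1.91 and 1.89 on the K8wt arrays and 2.14, 2.82 and 2.24 in tumors 23, 24 and 25, all under the background mark, with a difference of 0.52 ± 0.22 (SE, adjusted p of 0.20 in limma over all probe sets). The brighter probe set of Rb1 differed by 0.25. What lies behind the difference was not tested.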

How the results depend on the processing

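Over 120 refits of the 8 differences under other settings, 113 kept direction and side of the threshold, 5 reversed and 2 passed. Reversals were Met without K8wt replicate 4 (0.02) and without tumor 25 (0.037), in a range of -0.42 to 0.037 over the fits without an array, and Birc2 (-0.18), Rb1 (-0.37) and Nf1 (-0.38) after housekeeping centring, which made Birc3 (-0.98) and Mcl1 (-1.31) pass. In fits of 1 tumor, chosen after seeing the data, tumor 23 turned the sign of Met (0.17) and Nf1 (-0.20). Housekeeping centring lowered the tumors against the K8wt arrays because the 13 housekeeping genes measured higher in tumors. Their mean was 8.57, 8.09 and 8.68 in tumors 23, 24 and 25 and 7.67 to 7.97 on the K8wt arrays. After it 7523 genes passed, 7.28% of them higher, against 867 and 64.5%. Under the quantile and loess scalings 55.7% and 60.7% of calls were higher. Array weights gave 1324 calls, and leaving out an array 72 to 1200. Calls in the pathway lists numbered 48 after housekeeping centring and 2 to 16 without an array, against 19. Of 24 member values, 7 above and 6 below the K8wt range became 4 and 13 after quantile normalization again and 0 and 16 after housekeeping centring, and 12 were below after cyclic loess. After each of these 3 scalings Myc lay below its range in 2 tumors, Met in 1 and Birc3 in 3, against 1, 0 and 1 as deposited. Yap1 lay below in 3 tumors after quantile normalization again and in 2 after each of the others, against 1. Mcl1 kept all 3 tumors below. Birc2 kept 3 above, except that 2 lay below after housekeeping centring. Nf1 lay below its range in 1 tumor after each of these 3 scalings, and Rb1 in 2 after housekeeping centring, against 0 for both as deposited.

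Flanking medians less that of all genes, as means over the tumors, moved with the window. With 5 measured genes on each side they were -0.28 for Myc (from -0.18), -0.044 for Met (0.15), 0.55 for Mcl1 (0.67) and -0.24 for Nf1 (0.15). With 20 they were -0.0053 for Myc, 0.16 for Yap1 (-0.21), 0.078 for Birc2 (-0.23), 0.085 for Birc3 (-0.21) and 0.56 for Mcl1. Quantile normalization again gave -0.073 for Myc and 0.41 for Mcl1, and cyclic loess 0.40 for Mcl1. With 10 genes of a mean of at least 5 on each side, chosen after seeing the data, they were 0.44 for Myc, 0.012 for Met, 0.39 for Yap1, 0.27 for Birc2, 0.28 for Birc3, 0.49 for Mcl1, -0.43 for Rb1 (-0.03) and 0.46 for Nf1. The Mcl1 median was positive in every one of these settings. Genes with a mean of at least 5 had a median difference of 0.32, beside -0.12 over all genes. Neither the part of expression level in these values nor the cause of the changes between settings was tested. No paired analysis was possible because the groups share no replicate numbers.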
